A study of Mus musculus with 8 samples.

Results

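Lysosomal genes were followed in whole colon of mice that had acute graft-versus-host disease, an attack of transplanted T cells on tissues of the recipient. The 39 genes were listed by name in 3 subgroups, namely subunits of the vacuolar proton pump (gene names starting with Atp6), cathepsins, and other lysosomal hydrolases, membrane proteins and regulators. A named probe set was found for 35 of them, 11 of 12 pump genes, 10 of 11 cathepsins and 14 of 16 others, out of 19505 genes measured. Atp6v0c, Ctsd, Cd68 and Glb1 were not measured here. Probe sets were chosen by their mean level over the 8 arrays, and the genes themselves were proposed with earlier results of the same contrast known. The differences below are therefore a description, and the p-values beside them, which come from a fit to all genes, are not independent evidence.

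Mice of the hBD-2 group received human beta-defensin 2, an antimicrobial peptide that epithelial cells secrete, by mouth at 1.2 mg/kg from day 0 to day 7. Mice of the PBS group received PBS by mouth over the same days. There were 4 mice in each group. All 8 were wild-type BALB/c recipients that had been lethally irradiated and given bone marrow and T cells from C57BL/6 donors on day 0, and colon was taken on day 7. No mouse without transplant is among them, so the comparison is between treatments of diseased colon. Levels are log2 RMA values, which cannot be compared between genes, and differences are log2 units, hBD-2 minus PBS.

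Lysosomes are acidic organelles in which macromolecules, microbes and worn-out organelles are broken down. The vacuolar proton pump acidifies them: a cytosolic sector splits ATP and turns a membrane sector that carries protons. Cathepsins are proteases that work in this acid, and hydrolases of sugars and lipids work beside them. Every cell has lysosomes, and macrophages, which digest what they engulf, are especially rich in them. Many lysosomal genes carry near their start a short palindrome, the core of the CLEAR element, to which the transcription factor TFEB and its relatives, among them MITF, bind.

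That core was looked for near the start of each member. RefSeq windows from 250 bases before to 50 bases after the annotated start (GRCm38.p6) were held for 31 of the 39 members, in 40 windows. Atp6v0d2, Atp6v1b2, Atp6v1c1, Atp6v1h, Ctsb, Ctse, Ctsh and Npc1 had none. The letters CACGTG, a palindrome and thus the same on both strands, occurred in 11 of 31 members (35.5%), against 8.09% of the 27025 genes with a window. The longer GTCACGTG, which contains it and was searched on both strands, occurred in 7 members (22.6%), against 2.55% of genes. A match is a description and not a bound site. The 9 measured members with CACGTG are shown with 12 bases on either side, in the direction of the gene and with the motif in capitals. Where a window held several matches, the match listed first in the window is shown.
Atp6v0d1: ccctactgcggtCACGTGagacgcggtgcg
Atp6v0b: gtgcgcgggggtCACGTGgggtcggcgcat
Atp6v1a: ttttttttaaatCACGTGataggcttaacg
Ctsa: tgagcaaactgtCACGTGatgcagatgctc
Ctsf: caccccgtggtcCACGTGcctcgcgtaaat
Ctsl: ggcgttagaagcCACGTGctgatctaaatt
Lgmn: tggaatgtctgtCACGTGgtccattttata
Lamp1: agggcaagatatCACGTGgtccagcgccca
Gaa: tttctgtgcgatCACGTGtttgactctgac

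These stretches lie at chr8:105566050-105566079 (minus strand) for Atp6v0d1, chr4:117887348-117887377 (minus) for Atp6v0b and chr16:44139373-44139402 (minus) for Atp6v1a. Those of the cathepsins lie at chr2:164833749-164833778 (plus) for Ctsa, chr19:4855074-4855103 (plus) for Ctsf and chr13:64370739-64370768 (minus) for Ctsl. The others lie at chr12:102439124-102439153 (minus) for Lgmn, chr8:13159088-13159117 (plus) for Lamp1 and chr11:119267811-119267840 (plus) for Gaa. Lamp1 held 4 matches, and Atp6v0b and Ctsa held 2 each. A second motif, TCATGTG, a form of E-box to which MITF is known to bind, was searched on both strands and shares no match with CACGTG. It occurred in 4 of 31 members (12.9%), against 4.31% of genes. Among these were Ctsa, whose levels overlapped between the groups (difference -0.0742), and Atp6v0c, which was not measured. The motif is shown for the 2 whose expression levels did not overlap between the groups, again in the direction of the gene. They were chosen by their levels, so nothing is read from their carrying it.
Ctss: ttgtggatgctTCATGTGacaagctccga
Scarb2: ccgctgcagggCACATGActgaaggcctc

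The stretch of Ctss lies at chr3:95526793-95526821 (plus) and that of Scarb2 at chr5:92505672-92505700 (minus), where the motif reads on the opposite strand.

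The 9 measured members with CACGTG had differences from -0.47 in Ctsl to 0.10 in Atp6v1a, with a median of -0.0742, and the 18 measured members whose windows lacked it had a median of -0.12. Of the 9 members named below in which every hBD-2 level was under every PBS level, Lgmn carried CACGTG, 5 did not and 3 had no window.

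Most members stood below 0. Of the 35 measured members 28 had a negative difference (80.0%, against 46.5% of all genes), and the median was -0.11, against 0.012 over all genes. No member passed an adjusted p of 0.05 in limma, where 0.0410% of all genes did, and the lowest adjusted p was 0.0634, for Atp6v0d2. At an unadjusted p under 0.05, 14 members were below 0 and 1 above, against 5.98% and 5.85% of all genes. Every hBD-2 level was under every PBS level in 9 members, Atp6v0d2, Ctsz, Ctsb, Ctss, Ctsh, Gpnmb, Lgmn, Psap and Scarb2, as in 3.60% of all genes. The reverse held in Ctse, as in 2.80% of all genes. Because the genes were proposed from this same contrast, nothing is read from these shares. In whole tissue, fewer cells of a type and less RNA per cell cannot be told apart.

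**Figure D1:**
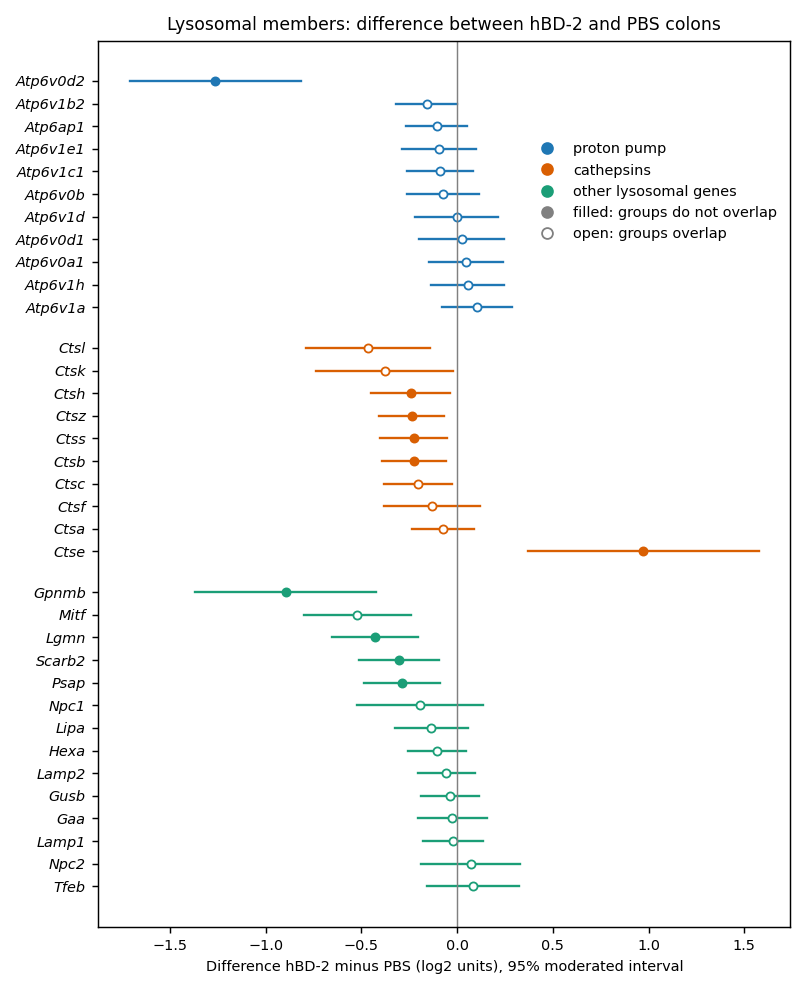
Difference hBD-2 minus PBS in log2 units (horizontal) for each of the 35 measured members (rows), by subgroup, with the 95% interval from limma as a line. Filled points mark the 10 members whose groups do not overlap, and Atp6v0d2 at -1.26 and Ctse at 0.97 are the ends of the range.

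Mice 1 and 3 of the hBD-2 group differed from the other 6 in some genes of the posterior colon, and they are called the posterior pair below. A list of 10 such genes, mostly of the Hox clusters and of the epithelial sodium channel, had means of 1.01 and 0.80 in the posterior pair relative to each gene's mean, against -0.42 to -0.14 in the other 6. Both mice of the pair were above the other 6 in 5 of the 10, Hoxb13, Hoxd13, Scnn1b, Scnn1g and Insl5, but not in the other 5, which are Hoxa13, Hoxc10, Hoxd10, Hoxd11 and Hoxd12. Member values are therefore also given without the pair where they move by over 1.5 times. Hoxd10 was lower in the pair (4.69 and 4.63) than in hBD-2 2 and 4 (5.93 and 5.55). PBS mice varied too, with Hoxb13 at 7.22 and 6.76 in PBS 3 and 4, against 4.73 and 5.14 in PBS 1 and 2. Leaving out the pair thus does not match the groups in these genes. Without the pair, 30 of 35 members had a negative difference (85.7%, against 44.6% of all genes). Their median was -0.13, against 0.0203 over all genes, and their mean -0.1545 instead of -0.1613. At an unadjusted p under 0.05, 5 members instead of 14 were below 0. That fit had fewer hBD-2 mice and thus less power, and its share of all genes is not given here. With the mean of the 10 posterior genes as a covariate, a fit that left out no mouse, 6 members were below 0 in this sense. Why the count fell was not tested. A list of 10 markers of intestinal epithelium, among them Epcam and Krt20, had a mean level between 11.4 and 11.6 in hBD-2 mice and between 11.4 and 11.5 in PBS mice. With no other tissue to compare, these levels do not test the tissue label. The part of gut position in the members' values was not tested.

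Among the pump genes, a single subunit stood far from the others. Atp6v0d2 encodes the form of the d subunit of the membrane sector that is found in osteoclasts and macrophages. Its level was 7.11, 7.97, 7.25 and 8.05 in hBD-2 mice 1 to 4, against 8.94, 8.96, 8.84 and 8.70 in PBS mice 1 to 4. Every hBD-2 mouse lay at least 0.65 below every PBS mouse, and the posterior pair was the lowest. The difference was -1.26 (SE 0.20, 95% interval -1.71 to -0.82), a 2.40-fold lower level, with an adjusted p of 0.0634 in limma. Without the posterior pair it was -0.85.

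Its paralog Atp6v0d1 encodes the d subunit found in most tissues. Its level was 9.62, 9.46, 9.48 and 9.17 in hBD-2 mice, against 9.34, 9.34, 9.52 and 9.44 in PBS mice. The groups overlapped throughout, and the difference was 0.024 (95% interval -0.20 to 0.25), or -0.0931 without the posterior pair. The log2 ratio of the 2 forms within a mouse removes what is common to an array, although its absolute size carries no meaning on these probes. It was -2.51, -1.50, -2.23 and -1.12 in hBD-2 mice, against -0.41, -0.38, -0.68 and -0.74 in PBS mice, a difference of -1.29 with no overlap. The posterior pair had the lowest ratios, and hBD-2 1 was also the highest mouse in Atp6v0d1.

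The other pump subunits had differences between -0.16 and 0.10. Atp6v1b2, a form of the nucleotide-binding B subunit that is widely expressed, had levels of 9.70, 9.53, 9.62 and 9.60 in hBD-2 mice and 9.84, 9.76, 9.68 and 9.80 in PBS mice. The groups overlapped only through hBD-2 1 and PBS 3, and the difference was -0.16 (SE 0.071, adjusted p = 0.422 in limma). Atp6ap1, an accessory protein of pump assembly, had levels of 9.31, 9.30, 9.14 and 9.18 in hBD-2 mice and 9.37, 9.35, 9.38 and 9.26 in PBS mice, a difference of -0.11 (SE 0.072).

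Atp6v1a, the catalytic A subunit that splits ATP, had the most positive difference of the subgroup. Its levels were 9.13, 9.05, 9.01 and 8.92 in hBD-2 mice, against 8.88, 8.79, 8.99 and 9.05 in PBS mice. The groups overlapped, with a difference of 0.10 (SE 0.083, 95% interval -0.0812 to 0.29), or 0.0600 without the posterior pair. The remaining subunits of the cytosolic sector, Atp6v1c1, Atp6v1d, Atp6v1e1 and Atp6v1h, had differences between -0.0937 and 0.056. Those of the membrane sector, Atp6v0a1 and Atp6v0b, had 0.046 and -0.0747. For the 10 subunits other than Atp6v0d2 the mean difference was -0.0302, and the per-mouse means overlapped. Without the posterior pair, Atp6v1d stood at -0.17, Atp6v1c1 at -0.19, Atp6v1e1 at -0.20, Atp6v0b at -0.17 and Atp6v0a1 at -0.0251, and the median of these 10 was -0.13.

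**Figure D2:**
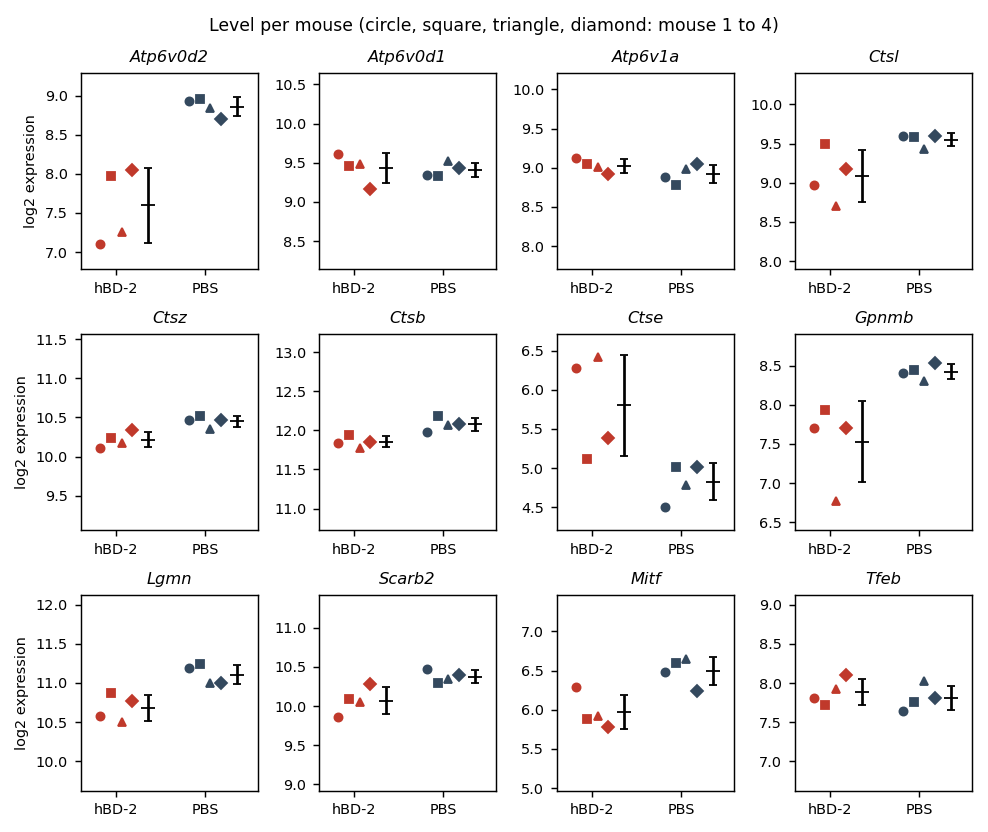
Level in log2 RMA units (vertical, each panel spanning 2.5 units) of 12 members in each mouse, hBD-2 at left and PBS at right, with mean and SD (n = 4 each) beside the points. Atp6v0d2, Gpnmb and Lgmn lie wholly below the PBS mice in the hBD-2 mice and Ctse wholly above, while Atp6v0d1, Atp6v1a and Tfeb overlap.

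Of the 10 measured cathepsins 9 had a negative difference (90.0%, against 46.5% of all genes), with a subgroup median of -0.23. At an unadjusted p under 0.05, 7 were below 0 (70.0%, against 5.98% of all genes), shares from which, as above, nothing is read. Ctsl encodes cathepsin L, a cysteine endopeptidase of lysosomes, and had the most negative difference. Its levels were 8.97, 9.50, 8.70 and 9.17 in hBD-2 mice, against 9.59, 9.59, 9.43 and 9.59 in PBS mice. The groups overlapped through hBD-2 2 and PBS 3 alone. The difference was -0.47 (SE 0.15, adjusted p = 0.257 in limma), and -0.22 without the posterior pair.

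Ctsb and Ctsz encode cathepsins B and Z, cysteine peptidases that trim proteins from their ends, the first also an endopeptidase. Ctsb had levels of 11.84, 11.94, 11.77 and 11.85 in hBD-2 mice and 11.98, 12.19, 12.07 and 12.08 in PBS mice. Ctsz had levels of 10.11, 10.23, 10.18 and 10.34 in hBD-2 mice and 10.47, 10.52, 10.35 and 10.47 in PBS mice. In neither did the groups overlap, although hBD-2 2 came within 0.032 of PBS 1 in Ctsb and hBD-2 4 within 0.011 of PBS 3 in Ctsz. The differences were small, at -0.23 (SE 0.074) for Ctsb and -0.24 (SE 0.076) for Ctsz.

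Cathepsin S (Ctss), which cuts the invariant chain of MHC class II in antigen-presenting cells, was at -0.23 (SE 0.079). The aminopeptidase cathepsin H (Ctsh) was at -0.24 (SE 0.093), and -0.37 without the posterior pair. Cathepsin C (Ctsc), which activates granule proteases of leukocytes, was at -0.20, and -0.13 without that pair. Ctsk, the collagen-degrading cathepsin of osteoclasts and fibroblasts, was at -0.38 (SE 0.16), and -0.22 without PBS 1, which at 7.11 was the highest mouse. Ctsf was at -0.13 (-0.0591 without the posterior pair) and Ctsa, a carboxypeptidase that also protects other lysosomal enzymes, at -0.0742. The intervals of both included 0. The probe sets of Ctsk and Ctsf are among the dimmest 50% and were not shown to be above background.

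Ctse, cathepsin E, differed in direction. It is an aspartic protease of epithelial and immune cells that is found mainly in compartments other than the lysosome. Its levels were 6.28, 5.12, 6.42 and 5.38 in hBD-2 mice, against 4.51, 5.01, 4.78 and 5.01 in PBS mice. All hBD-2 mice lay above all PBS mice, with the posterior pair well above the others and hBD-2 2 only 0.11 above PBS 2. The difference was 0.97 (SE 0.27, 95% interval 0.37 to 1.58, adjusted p = 0.219 in limma). No fold is given, since its probe set is among the dimmest 50% and was not shown to be above background. Without the posterior pair it was 0.42. A list of 7 stomach genes was chosen because cathepsin E is abundant in stomach lining. It had mean levels of 5.09 to 5.39 in hBD-2 mice and 5.03 to 5.28 in PBS mice, which overlapped. Of the 7, 5 had a positive difference and 2 a negative one (28.6%, against 46.5% of all genes). These genes were not shown to be above background either, so the overlap does not test for stomach tissue.

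Among the other lysosomal genes, Gpnmb had the most negative difference. It encodes a membrane glycoprotein of lysosomes and melanosomes that is made by lipid-laden macrophages. Its levels were 7.71, 7.93, 6.77 and 7.70 in hBD-2 mice, against 8.41, 8.44, 8.31 and 8.54 in PBS mice. The groups did not overlap, and hBD-2 3 was far below the other hBD-2 mice. The difference was -0.90 (SE 0.21, adjusted p = 0.158 in limma), a 1.86-fold lower level. It was -0.64 at its smallest when a single array was left out.

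Lgmn encodes legumain, an asparaginyl endopeptidase that processes other lysosomal proteases, and its CACGTG stretch is printed above. Its levels were 10.58, 10.87, 10.50 and 10.76 in hBD-2 mice, against 11.18, 11.25, 11.004 and 10.995 in PBS mice. The groups did not overlap, with a gap of 0.13 between hBD-2 2 and PBS 4. The difference was -0.43 (SE 0.10, adjusted p = 0.158 in limma).

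Scarb2 encodes LIMP-2, the membrane protein that carries glucocerebrosidase to lysosomes. Its levels were 9.87, 10.09, 10.05 and 10.28 in hBD-2 mice, against 10.47, 10.29, 10.35 and 10.40 in PBS mice. The groups did not overlap, but hBD-2 4 lay only 0.0082 below PBS 2. The difference was -0.31 (SE 0.094), and -0.19 without the posterior pair. Psap, the precursor of the saposins that present lipids to hydrolases, was at -0.29 (SE 0.090), with no overlap, and at -0.15 without that pair.

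The subgroup held 8 further enzymes and membrane or cholesterol-handling proteins. The intervals of Hexa (beta-hexosaminidase, -0.11), Lipa (acid lipase, -0.14), Gusb (beta-glucuronidase, -0.0382) and Gaa (acid alpha-glucosidase, -0.0248) all included 0. So did those of the major membrane proteins Lamp1 (-0.0212) and Lamp2 (-0.0564), and of the cholesterol exporters Npc1 (-0.19) and Npc2 (0.0699). Without the posterior pair, Lipa was at -0.0627, Gusb at 0.0069, Gaa at -0.0968, Lamp1 at -0.0919, Lamp2 at -0.0287, Npc1 at -0.0075 and Npc2 at -0.0812. Over all 8 mice, 19 of the 35 members (54.3%), 9 of them pump subunits, differed by less than 0.15 in either direction, against 70.0% of all genes.

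The list held 2 transcription factors. Mitf, known as the regulator of melanocytes and osteoclasts, had levels of 6.30, 5.88, 5.92 and 5.79 in hBD-2 mice, against 6.48, 6.60, 6.65 and 6.24 in PBS mice. The groups overlapped only through hBD-2 1 and PBS 4. Its difference was -0.52 (SE 0.13, adjusted p = 0.165 in limma), and -0.66 without the posterior pair. Like that of Ctse, its probe set is among the dimmest 50% and was not shown to be above background. Tfeb, the regulator of lysosome formation, had levels of 7.81, 7.72, 7.92 and 8.11 in hBD-2 mice, against 7.64, 7.76, 8.02 and 7.81 in PBS mice. These overlapped throughout, with a difference of 0.0812 (95% interval -0.16 to 0.32). That value rested on single mice, at 0.0084 without hBD-2 4, 0.025 without PBS 1, 0.14 without hBD-2 2 and 0.15 without PBS 3.

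Members also varied between mice of a group. The SD within groups had a median of 0.11 over the 35 members, against 0.14 over all genes. It ran from 0.0545 in Lamp2 to 0.49 in Ctse, and exceeded 0.2 in 7 members. Of the 35 members, hBD-2 3 was the lowest mouse in 11, hBD-2 4 in 9, hBD-2 1 in 7 and hBD-2 2 in 4, while PBS mice were the lowest in 4. PBS 2 was the highest mouse in 14 members.

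Values of cell type markers stand beside the members here. The mean of the 35 members, relative to each gene's mean, was -0.0705, -0.0533, -0.104 and -0.0945 in hBD-2 mice and 0.0985, 0.119, 0.0619 and 0.0430 in PBS mice. Of 10 measured macrophage markers, 9 had a negative difference (90.0%, against 46.5% of all genes). The mean of the 10 was -0.24, -0.0902, -0.35 and -0.14 in hBD-2 mice and 0.28, 0.36, 0.0851 and 0.0930 in PBS mice. The differences of these 10 markers had a median of -0.50. They ran from -0.72 in the mannose receptor Mrc1 to 0.11 in the chemokine receptor Cx3cr1, and Fcgr1, a receptor for IgG, was at -0.0423. All 6 measured fibroblast markers had a negative difference too, against 46.5% of all genes. Their means ran from -0.43 to 0.0435 in hBD-2 mice and from 0.19 to 0.37 in PBS mice. The mean of the 10 epithelial markers overlapped between the groups. It ranged from -0.0859 to 0.10 in hBD-2 mice and from -0.0836 to 0.0385 in PBS mice. In 3 of the 10, however, every hBD-2 level was above every PBS level, as in 2.80% of all genes. These were Cdx1 (0.21), Vil1 (0.11) and Slc26a3 (0.33). All 5 measured T cell markers and 5 of 6 neutrophil markers (83.3%) had a negative difference, against 46.5% of all genes. The per-mouse means of both lists overlapped between the groups. Marker lists were chosen with earlier results of these data known, so nothing is read from their shares. The part of these cell types in the members' values was not tested.

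**Figure D3:**
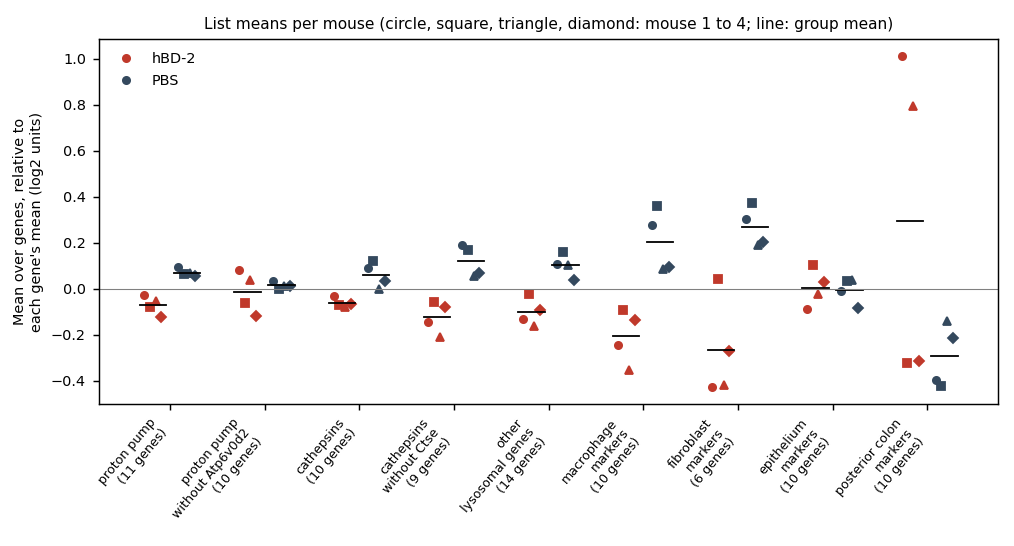
Mean over the genes of each list, relative to each gene's mean over the 8 mice (vertical, log2 units), with 1 point per mouse, hBD-2 left of PBS, and a line at each group mean. The full lists of pump genes and of cathepsins do not overlap between groups. Without Atp6v0d2 the pump genes overlap, and without Ctse the cathepsins still do not. The posterior colon list is high in mice 1 and 3 of the hBD-2 group.

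Since Atp6v0d2, Ctsk and Mitf are also known from osteoclasts, 8 further osteoclast genes were read. Their mean overlapped between the groups, from -0.0641 to 0.0505 in hBD-2 mice and from -0.0948 to 0.11 in PBS mice. Acp5, the tartrate-resistant acid phosphatase of osteoclasts and of gut epithelium, was at 0.0005 (95% interval -0.15 to 0.15). Of the 8, 5 had a negative difference (62.5%, against 46.5% of all genes). The 2 with the lowest unadjusted p in limma were Itgb3, the beta subunit of an osteoclast integrin, at -0.28 and Ocstamp, a fusion protein of osteoclasts, at -0.23, and Car2, a carbonic anhydrase, was the most positive at 0.24.

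A wider set of lysosomal genes outside the members was read in the same fit. Of 131 such genes 123 were measured, and 0 passed an adjusted p of 0.05 in limma, where 8 of 19505 genes did. At an unadjusted p under 0.05, 15 were below 0 and 2 above (12.2% and 1.63%, against 5.98% and 5.85% of all genes). In 12 of them every hBD-2 level was under every PBS level (9.76%, against 3.60% of all genes), and the reverse held in none. Their median difference was -0.0162, against -0.11 for the members and 0.012 for all genes. These genes too were listed with earlier results of these data known, so nothing is read from the shares here or below.

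Of 20 further pump subunits, assembly factors and partner channels, 1 was below 0 at an unadjusted p under 0.05 and none above. The 1 below 0 was Dmxl2, which takes part in pump assembly, at -0.27 (SE 0.11). Atp6v0a4, a subunit form of kidney and other acid-secreting epithelia, was at 0.29 (SE 0.13). Of 11 further cathepsins and inhibitors 3 were below 0 in this sense (27.3%, against 5.98% of all genes). Among them were the cathepsin gene Ctso at -0.34 (SE 0.11) and cystatin C (Cst3), a secreted inhibitor of cysteine cathepsins, at -0.24 (SE 0.064).

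Of 33 further hydrolases and activators 15 had a negative difference (45.5%, against 46.5% of all genes) and 18 a positive one. At an unadjusted p under 0.05, 3 were below 0 and 1 above (9.09% and 3.03%, against 5.98% and 5.85% of all genes). Gm2a, the activator that presents GM2 ganglioside to hexosaminidase, had levels of 8.84, 8.84, 9.002 and 9.21 in hBD-2 mice, against 9.44, 9.83, 9.42 and 9.48 in PBS mice. The groups did not overlap, and the difference was -0.57 (SE 0.12, adjusted p = 0.119 in limma). The phospholipase Pla2g15 was at -0.31 (SE 0.094), with no overlap.

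Of 26 further membrane proteins and transporters 15 had a negative difference (57.7%, against 46.5% of all genes) and 11 a positive one. At an unadjusted p under 0.05, 4 were below 0 and 1 above (15.4% and 3.85%, against 5.98% and 5.85% of all genes). Laptm5, a lysosomal membrane protein of blood cells, had levels of 9.87, 9.66, 9.75 and 9.75 in hBD-2 mice, against 10.29, 10.43, 10.23 and 10.29 in PBS mice. The groups did not overlap, and the difference was -0.55 (SE 0.076, adjusted p = 0.0535 in limma). Slc11a1, the metal transporter of macrophage phagosomes, was at -0.45 (SE 0.094), with no overlap. Of 33 genes of delivery and regulation 22 had a negative difference (66.7%, against 46.5% of all genes) and 11 a positive one. At an unadjusted p under 0.05, 4 were below 0 (12.1%, against 5.98% of all genes) and none above. Tfec, a relative of Tfeb and Mitf that is expressed in macrophages, had levels of 7.27, 6.87, 6.87 and 7.22 in hBD-2 mice, against 7.85, 7.91, 7.53 and 7.27 in PBS mice. The groups did not overlap, with hBD-2 1 close to PBS 4, and the difference was -0.58 (SE 0.15). Rragb, a small GTPase of nutrient sensing, was at -0.34 (SE 0.11).

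**Figure D4:**
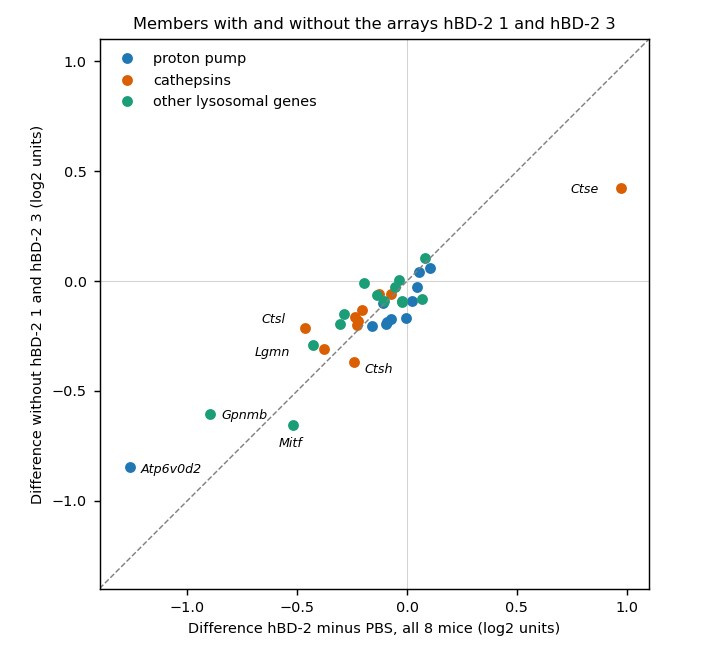
Difference hBD-2 minus PBS in log2 units for each of the 35 members over all 8 mice (horizontal) and without the posterior pair (vertical), with the dashed line at equal values. Atp6v0d2 (-1.26 and -0.85), Gpnmb (-0.90 and -0.61) and Ctse (0.97 and 0.42) lie nearer to 0 without the pair, and Mitf (-0.52 and -0.66) and Ctsh (-0.24 and -0.37) farther from it.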

How the data were processed

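RNA of whole colon from 8 mice was hybridised to 1 Affymetrix array per mouse, and groups and mouse numbers came from the sample titles. The authors deposited log2 expression values for 22203 probe sets. Per the submitters' processing notes they used the R package oligo and RMA, which corrects background, quantile-normalizes the arrays and summarises probes, so an overall shift between mice is removed. The array's genome build is not given here. Array medians ran from 6.77 to 6.82 log2 units, and precision is limited by the number of arrays.

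By the platform annotation 19572 probe sets had 1 gene symbol, none had several, and 2631 had none. The probe set with the highest mean was kept for each of 19505 genes, and each measured member had a single probe set. hBD-2 minus PBS was fitted over all genes with limma 3.58.1 (lmFit, eBayes) under R 4.3.3, two-sided, with Benjamini-Hochberg adjustment and a threshold of 0.05. The fit was tested on simulated data. The labels state no pairing. Same-numbered mice deviated from their group means with correlations of -0.15, 0.14, 0.24 and 0.045, so the number was no block. Members, lists, settings and the rule for naming genes were chosen with earlier results of these data known. That rule gave the level in every mouse for the 4 members of each subgroup with the lowest p, the member with the most positive difference, and Atp6v0d1, Atp6v0d2, Ctse, Tfeb and Mitf, and it named the 2 genes with the lowest p in each further list of lysosomal genes. Marker genes were named after their values were seen. Promoter windows came from RefSeq (GRCm38.p6), and figures were drawn with matplotlib 3.10.9.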

Additional observations from a re-analysis of the deposited data

Results flagged for a closer look

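In 7 of the 90 groups examined (45 genes in hBD-2 and in PBS mice), a single mouse lay far from the other 3 by Dixon's test, where chance flags about 5% of groups. In Gaa hBD-2 4 was at 9.43, against 9.70 to 9.71 in the other hBD-2 mice. In Ctsk PBS 1 was at 7.11, against 6.43 to 6.52 in the other PBS mice, and in Ctsl PBS 3 was at 9.43, against 9.59 in the others. Among the pump subunits, PBS 3 was at 9.26 in Atp6v1h (9.54 to 9.58 in the others), PBS 4 at 9.07 in Atp6v1c1 (9.15 in the others) and PBS 1 at 8.76 in Atp6v1d (8.66 in the others). In Gm2a PBS 2 was at 9.83, against 9.42 to 9.48 in the other PBS mice.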

How the results depend on the processing

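Of 19 alternative settings, none took the number of members with a negative difference outside 25 to 30 (28 as reported), and 26 of the 35 members kept the sign of their difference in each setting in which they were fitted. The intensity trend, the replicate block and the threshold of 0.1 cannot move a member's difference. Nor can the mean over a gene's probe sets or the cut of the dimmest 25%, so none of these bears on those counts. Without the dimmest 50% of probe sets only 31 members were fitted, since Ctse, Ctsf, Ctsk and Mitf fell out, and 25 of the 31 were negative. Genes passing over the whole table, 8 as reported, numbered 91 with an intensity trend and robust prior, 16 without the dimmest 25% of probe sets, 47 without the dimmest 50%, 4 with quantile normalization repeated, 68 with array weights, 13 with the posterior colon mean as a covariate, 81 at a threshold of 0.1, and 0 without mice 1 and 3 of the hBD-2 group. With single mice left out there were 0 to 11, with 0 when hBD-2 1, hBD-2 3 or any PBS mouse was left out. With the replicate number as a block there were 0. No named gene passed as reported either, so an unchanged call of a named gene says nothing about the block. The mice share only a number: 1 of the 4 hBD-2 mice correlated best with the PBS mouse of its own number.

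No member passed as reported. In 5 settings 1 did: Lgmn with the intensity trend (adjusted p = 0.0471), and Atp6v0d2 without the dimmest 50% (0.0420), with array weights (0.0344), the posterior covariate (-0.87, 0.0340) or a threshold of 0.1. Over the alternatives the adjusted p of Atp6v0d2 ran from 0.0340 to 0.252 and that of Lgmn from 0.0471 to 0.401. Members below 0 at an unadjusted p under 0.05, 14 as reported, numbered 6 with the posterior covariate, 5 without hBD-2 mice 1 and 3 and 10 to 14 with single mice left out. Fits with fewer mice have less power, but the covariate fit left out no mouse. Ctse, alone above 0 in that sense, was not tested without the dimmest 50%, which left 0 such members. The cathepsin mean was then -0.24 (-0.12 as reported), with Ctse, Ctsf and Ctsk out of the fit. Of the other lysosomal genes 3 passed with the intensity trend and 1, Laptm5, without the dimmest 25% or 50%, with array weights or at a threshold of 0.1.

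Leaving out some single mouse moved the difference of 18 members by over 1.5 times or turned its sign. The sign of 9 members changed in some setting. With the posterior covariate and without hBD-2 mice 1 and 3, Atp6v0d1 was at -0.10 and -0.0931, Atp6v0a1 at -0.0335 and -0.0251, Gusb at 0.0094 and 0.0069 and Npc2 at -0.0547 and -0.0812, and Npc1 was at 0.0156 with the covariate. Atp6v1d was at 0.0167 with arrays centred, 0.0264 with quantile normalization repeated and 0.0326 with array weights. With single mice left out, Atp6v0d1 ran from -0.0376 to 0.11, Atp6v1d from -0.0663 to 0.0540, Atp6v1h from -0.0217 to 0.0864, Gaa from -0.0498 to 0.0441, Lamp1 from -0.0477 to 0.0194 and Npc2 from -0.0424 to 0.15. The cause of these changes was not tested.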
